A study of Mus musculus with 3 samples.

Results

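Integrins are receptors made of an alpha and a beta subunit that span the plasma membrane and hold cells to collagens, laminins, fibronectin and other ligands. Talins and kindlins bind the beta tail inside the cell, vinculin, zyxin and the parvins link it to actin, and the kinases FAK and SRC with the scaffolds paxillin and p130CAS signal from it. In fibroblasts these proteins assemble into focal adhesions, while a separate set of integrins serves leukocytes. The genes described here are 44 of the 21782 genes in an RNA-seq count table of mouse embryonic fibroblasts (MEFs). They are the 26 integrin subunits that the table lists by their Itga or Itgb symbol (18 alpha and 8 beta) and 18 adaptors chosen by name. The rule goes by gene name and uses no measured value.

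The samples were labelled wild type (WT) MEFs from embryos at day 12.5 (E12.5), grown asynchronously with no treatment named, and each of the 3 libraries came from 1 clone. PolyA-selected RNA was sequenced, and the 3 samples form 1 group, so no conditions were compared and the comparisons are between clones. With 1 library per clone, a difference between clones cannot be told apart from one between cultures or libraries. The libraries held 25261357, 22594316 and 24791198 counts in genes for clones 1, 2 and 3. All 9 fibroblast markers examined, among them the collagen genes Col1a1 and Col1a2, were expressed, with summed levels of 54270, 45466 and 43737 counts per 1000000 counts (CPM). Most of this sum came from Col1a1 (32052, 25940 and 25148 CPM) and Col1a2 (16794, 13338 and 13006 CPM). Lum was low, at 3.38, 1.15 and 1.54 CPM. So were Dcn, at 10.4, 7.67 and 5.15 CPM, and Pdgfra, at 11.8, 27.3 and 16.8 CPM. Of 12 macrophage markers, 11 were expressed, at summed levels of 398, 1873 and 330 CPM. Clone 2 stood apart from the other clones in these genes, where more cells of a type and more RNA per cell cannot be told apart in bulk samples. The counts of genes that differ are given with and without it.

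Genes that reached at least 1 CPM in each of the 3 clones are called expressed. Of the 44 genes 35 did so, namely 18 of 26 integrin subunits and 17 of 18 adaptors, beside 11367 of all 21782 genes. Levels of different genes were set side by side only after division by the length of all annotated exons of the gene merged, as CPM per kb. Over all expressed genes with a length, the median level was 5.46 CPM per kb and the upper quartile 14.1. Of the integrin and adaptor genes, 26 were above that median, and 11 were among the highest 10% of expressed genes (Itgb1, Itga5, Itgb5, Itga11, Itgav, Vcl, Zyx, Ilk, Tln1, Fermt2 and Bcar1).

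**Figure D1:**
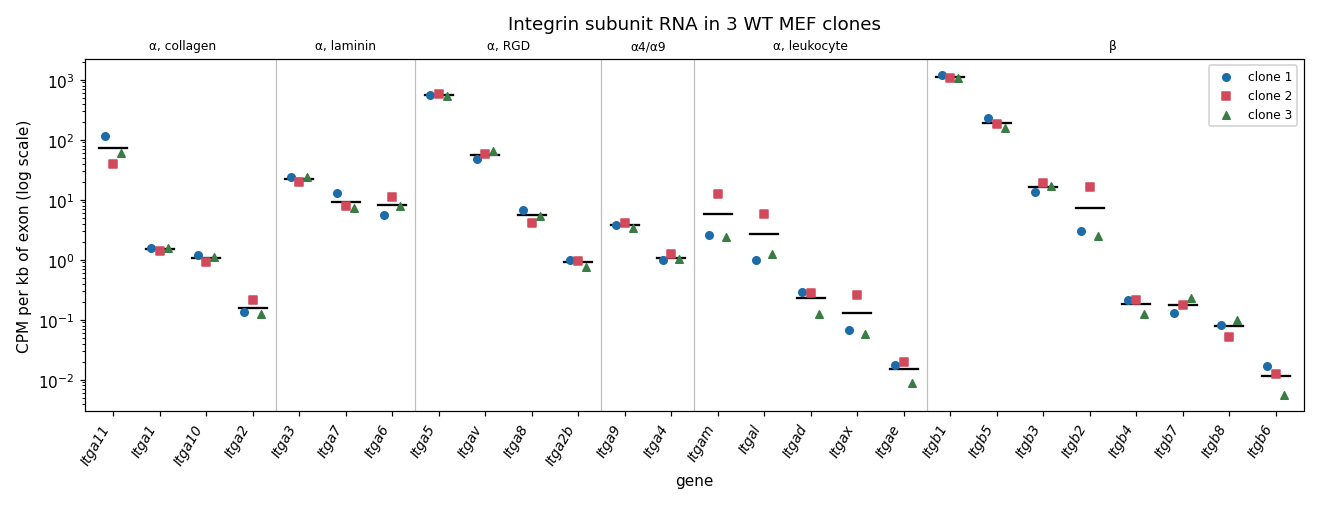
The y axis is CPM per kb of exon on a log scale and the x axis lists the 26 integrin subunits by class, with 1 point per clone and a line at the mean of the 3 clones. Itgb1 and Itga5 stand at the top, and the clone 2 squares of Itgam, Itgal, Itgax and Itgb2 lie above the points of the other clones.

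Itgb1 encodes the beta subunit that pairs with the most alpha subunits, and it had the highest level of all 44 genes. It had 120466, 97644 and 110811 counts in clones 1, 2 and 3, a level of 1108 ± 69.7 CPM per kb (SD, n = 3), and it ranked 23 among the expressed genes. The 3 clones were within 1.12-fold of each other. Itgb1 made up 83.7% ± 1.80 of the summed CPM per kb of the 8 beta subunits. Itgb5, whose product pairs with the alpha V subunit and binds vitronectin, came next with 20641, 14876 and 14250 counts, 193 ± 38.0 CPM per kb and 14.5% ± 1.79 of the sum. Itgb3, the other vitronectin-binding partner of alpha V, had 1964, 2492 and 2493 counts and 16.3 ± 2.69 CPM per kb. Itgb1 was above Itgb5, and Itgb5 above Itgb3, in each clone without overlap of the ranges. Clone 1 had the most Itgb5 and the least Itgb3.

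The other beta subunits were low. Itgb2, the leukocyte beta subunit, was below Itgb3 in each clone but the ranges of these genes overlapped, at 2.99, 16.6 and 2.46 CPM per kb for Itgb2. Itgb4, the partner of Itga6 in hemidesmosomes of epithelia, had 37, 34 and 22 counts. Itgb8 had 22, 13 and 28, Itgb7 (of lymphocytes) 9, 11 and 16, and Itgb6 (of epithelia) 3, 2 and 1. Counts of 3 or fewer cannot be told from 0 at this depth, where a count of 0 allows up to 0.133 CPM in the shallowest library. Of 8 epithelial markers 1 was expressed (Krt18), and their summed level was 4.26 to 10.3 CPM. Cldn4 had 65, 14 and 82 counts and Krt8 had 6, 9 and 28. Epcam, Cdh1, Krt5, Krt14 and Cldn7 had at most 5 counts in any clone.

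Among alpha subunits, Itga5 was the highest in each clone. Its product forms the main fibronectin receptor with the Itgb1 product, through the RGD sequence of fibronectin. Itga5 had 69258, 63766 and 68003 counts, a level of 561 ± 14.1 CPM per kb (SD, n = 3) and 74.7% ± 2.97 of the summed CPM per kb of the 18 alpha subunits. This share depends on the length used, and per count, with no division by length, it was 66.2%. The clones were within 1.05-fold of each other, and among the genes tested Ptk2 and Ilk alone had a smaller range. Itgav, the alpha V subunit, had 12502, 13750 and 17421 counts and 55.9 ± 8.71 CPM per kb, with the highest value in clone 3. Itga8, another RGD-binding subunit, had 1248, 681 and 1014 counts and 5.46 ± 1.36 CPM per kb. Together with Itga2b, the RGD-binding subunits took 78.6%, 85.9% and 84.7% of the alpha sum in clones 1, 2 and 3.

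Itga2b encodes the platelet fibrinogen receptor subunit, and it had 136, 116 and 106 counts (0.905 ± 0.122 CPM per kb). Of 8 megakaryocyte markers 3 were expressed, with a summed level of 17.5 to 38.2 CPM. Pf4 had 31, 481 and 57 counts and was high in clone 2, Ppbp had 137, 213 and 169, and Gp1bb had 372, 154 and 203, while the defining markers Gp9 and Gp1ba had at most 1 count in any clone. Whether cells of that lineage had a part in Itga2b was not tested.

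**Figure D2:**
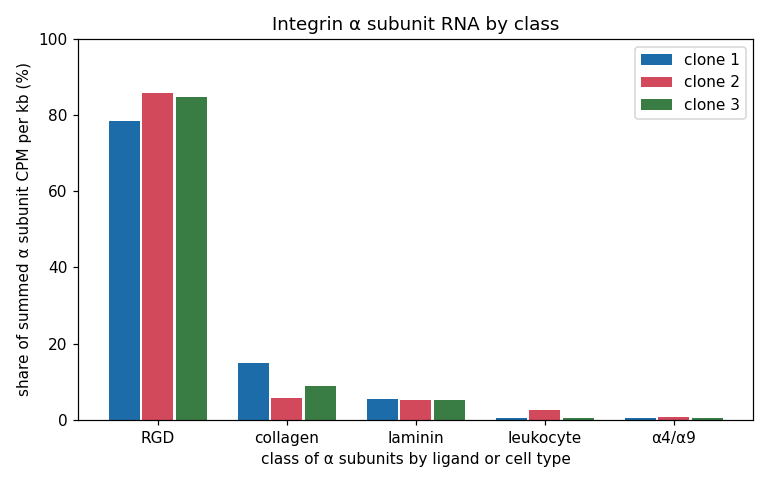
Bars give, for each clone, the share (y axis, %) of the summed CPM per kb of the 18 alpha subunits taken by each class (x axis). RGD-binding subunits take 78.6% to 85.9%, the collagen class is highest in clone 1 at 14.9%, and the leukocyte class is highest in clone 2 at 2.54%.

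The share of the collagen-binding class was highest in clone 1, and Itga11 made up most of it. Itga11, whose product binds fibrillar collagen and is made by mesenchymal cells, lies on chromosome 9 from 62677826 to 62783982 (plus strand, GRCm38). Its counts were 14626, 4537 and 7924, or 589, 201 and 314 CPM. Clone 1 was the highest, clone 2 the lowest, and the highest was 2.93-fold the lowest. The range of log2(CPM + 1) was 1.54, and it was 0.64 without clone 1, 0.90 without clone 2 and 1.54 without clone 3, so that Itga11 differed by 2-fold or more only where clones 1 and 2 were both in. Mean levels of Itga11 (71.7 ± 38.8 CPM per kb) and Itgav did not keep one order, as Itga11 was higher in clone 1 alone. The other collagen receptors were low and did not pass the test described below. Itga1 had 727, 591 and 729 counts (1.51 CPM per kb), Itga10 had 156, 109 and 145 (1.08 CPM per kb) and Itga2 had 24, 34 and 22 and was below 1 CPM in clones 1 and 3. Of the exon length of Itga10, 33.5% overlaps another annotated gene on the same strand. That gene is not among the genes listed with counts, and whether it affected the count of Itga10 is not known.

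Clone 1 also differed in growth markers. All 6 cell cycle genes examined, such as Mki67 and Top2a, were lowest there, beside 4817 of all 12218 genes tested. Their summed levels were 368, 723 and 609 CPM in clones 1, 2 and 3. The 3 arrest genes Cdkn1a, Cdkn2a and Cdkn2b were highest there, beside 4591 of all 12218 genes tested. Their sum was 587, 411 and 464 CPM, most of it from Cdkn1a (424, 342 and 379 CPM). The part of these growth markers in the higher Itga11 of clone 1 was not tested.

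The laminin-binding class took nearly the same share in each clone, at 5.42%, 5.17% and 5.33% of the alpha sum (5.31% ± 0.127, SD, n = 3), although its genes moved in different directions. Itga3, which pairs with Itgb1 in many adherent cells, had 3438, 2504 and 3423 counts and 22.5 ± 2.63 CPM per kb, lowest in clone 2. Itga7, known from muscle, had 2593, 1413 and 1497 counts and 9.32 ± 3.10 CPM per kb, highest in clone 1. Itga6, whose product also forms hemidesmosomes with that of Itgb4, had 1268, 2247 and 1758 counts and 8.14 ± 2.72 CPM per kb, highest in clone 2 and lowest in clone 1. Its highest clone was 1.95-fold the lowest, and the range of log2(CPM + 1) was 0.95, or 0.44 without clone 2. Itga7 was above Itga6 in clone 1 and below it in the other clones. Of 7 muscle markers 2 were expressed, Acta1 with 3235, 3805 and 3093 counts and Des with 1778, 701 and 2438, and the summed level was 200 to 223 CPM. Myh3 (6, 0 and 47 counts) and Actc1 (4, 1 and 38) were highest in clone 3, and Myod1, Myog and Ckm had at most 10 counts in any clone.

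Itga4 and Itga9, which bind fibronectin and other ligands outside the RGD sequence, had low levels. Itga9 had 723, 715 and 659 counts (3.77 CPM per kb) and Itga4, also known from leukocytes, had 338, 388 and 365 (1.08 CPM per kb). Clone 2 was the highest for both after scaling, by at most 1.26-fold over the lowest clone.

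Known mouse integrins are 24 pairs of an alpha and a beta subunit, and in 16 of them the RNA of both was expressed. For Itgb1 these were 11 of 12 pairs, all but the one with Itga2. For Itgav they were 3 of 5 (with Itgb1, Itgb3 and Itgb5), and for Itgb2 they were 2 of 4 (with Itgal and Itgam). Itga2b with Itgb3 completes the 16, while Itga6 with Itgb4, Itga4 with Itgb7 and Itgae with Itgb7 each lacked an expressed subunit. RNA of both subunits does not show that a receptor was made. Itgb1 was 1.52, 1.47 and 1.49 times the summed CPM per kb of its 12 alpha partners in clones 1, 2 and 3 (1.49 ± 0.0208). Dividing instead by the length of the main coding transcript, the one with the longest coding sequence, gave a ratio of 1.36 ± 0.0307, so the Itgb1 level was above that sum with either length. The ratio of Itgav to the sum of Itgb3, Itgb5, Itgb6 and Itgb8 was 0.189, 0.278 and 0.366, lowest in clone 1 and highest in clone 3.

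**Figure D3:**
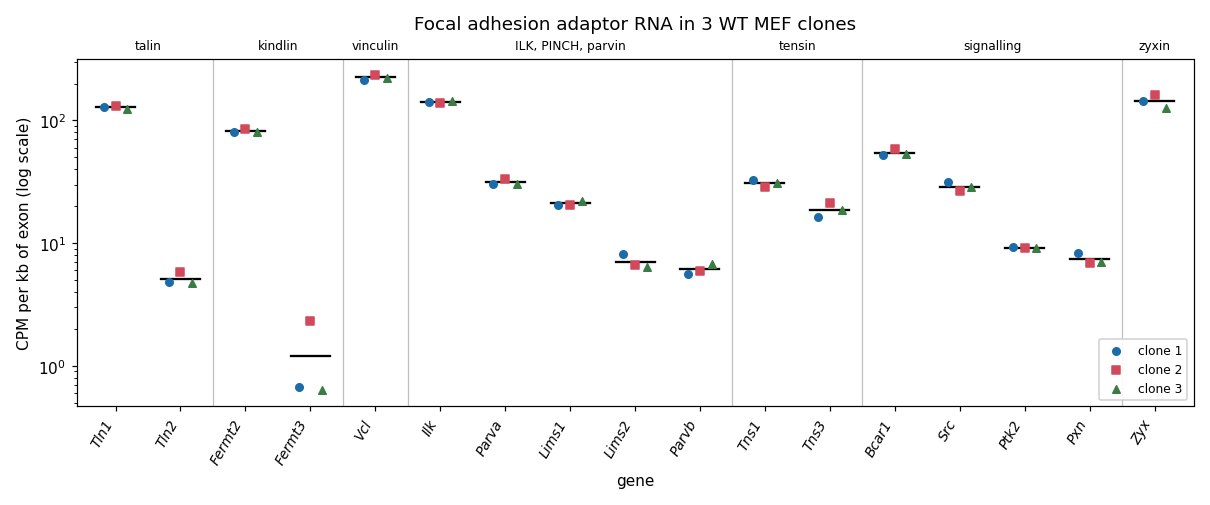
The y axis is CPM per kb of exon on a log scale and the x axis lists 17 adaptors by role, with 1 point per clone and a line at the mean. Fermt1 is left out because it had a count of 0 in clones 2 and 3. The points of each gene lie close together except for Fermt3, where clone 2 is higher.

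The adaptors included the most even genes. Without Fermt3, the 16 adaptors tested differed by 1.03-fold to 1.30-fold between clones. Vcl (vinculin, which binds talin and actin) had the highest level, with 43944, 43380 and 46362 counts and 225 ± 9.50 CPM per kb. Its counts are uncertain, as 25.5% of its exon length overlaps Ap3m1 on the opposite strand. Ap3m1 had 1053, 1024 and 1277 counts, which do not show how many Vcl reads were lost there. Zyx (zyxin, a LIM protein at the actin end of adhesions) had 19334, 19435 and 17226 counts and 144 ± 16.7 CPM per kb.

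The promoter of Vcl in RefSeq (GRCm38.p6, chr14:20929148-20929447, plus strand, 250 bases before to 50 after the start of the gene) is shown because it is the most abundant adaptor and holds a CArG box, the sequence that serum response factor binds. The box is in capitals and begins 227 bases before the start.
Vcl promoter: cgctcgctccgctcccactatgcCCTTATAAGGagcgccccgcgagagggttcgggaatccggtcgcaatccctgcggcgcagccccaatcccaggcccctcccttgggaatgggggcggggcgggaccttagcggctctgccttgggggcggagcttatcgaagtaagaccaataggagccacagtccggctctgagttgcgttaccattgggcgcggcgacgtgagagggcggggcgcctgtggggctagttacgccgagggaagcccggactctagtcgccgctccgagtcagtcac
A CArG box on either strand was found in 1.63% of the 32851 promoters in the table. A promoter was given for 31 of the 44 genes, and the box was also found in those of Fermt2 and Itgb6. Vcl and Fermt2 were among the highest genes of the set while Itgb6 had at most 3 counts. A match describes the letters only.

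Talin and kindlin activate integrins together. Tln1 had 31189, 29189 and 30648 counts and 128 ± 4.14 CPM per kb, and its paralog Tln2 had 2201, 2390 and 2178 counts and 5.10 ± 0.588 CPM per kb. The Tln1 share of both was 96.2% ± 0.315 per kb. Of counts alone it was 93.4% (95% exact Clopper-Pearson interval 93.1 to 93.7), 92.4% (92.1 to 92.7) and 93.4% (93.1 to 93.6) in clones 1, 2 and 3, where the intervals cover counting error only. Fermt2, the kindlin of mesenchymal cells, had 10370, 10059 and 10570 counts, 82.3 ± 3.13 CPM per kb and 98.6% ± 1.05 of the kindlin sum. Fermt1, the kindlin of epithelia, had 1 count in clone 1 and none in the others. In each family the same paralog led in every clone.

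Ilk, Parva or Parvb, and Lims1 or Lims2 encode the integrin-linked pseudokinase, the parvins and the PINCH proteins, which form a complex that links the beta tail to actin. Ilk had 9681, 8643 and 10032 counts and 142 ± 2.53 CPM per kb. In the annotation used, 89.7% of the Ilk exon length overlaps Taf10 and Rrp8 on the opposite strand, so its level is uncertain. These neighbours had at most 742 and 1107 counts in any clone, which does not show how many Ilk reads were lost. Parva (7595, 7586 and 7844 counts) took 83.7% ± 1.58 of the parvin sum per kb, and Parvb had 610, 595 and 757 counts. Lims1 (2499, 2251 and 2741 counts) took 74.9% ± 3.13 of the PINCH sum per kb, and Lims2 had 623, 456 and 493 counts. With the length of the main coding transcript, the shares of Parva and Lims1 were 90.9% and 85.1%.

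The tensins bind the beta tail and actin in more mature adhesions. Tns1 had 13062, 10389 and 12479 counts and 30.8 ± 2.03 CPM per kb, and Tns3 had 4533, 5368 and 5225 counts and 18.7 ± 2.49 CPM per kb. Tns1 was highest in clone 1, where Tns3 was lowest, so the Tns1 share of both per kb was 66.8%, 57.5% and 62.5% in clones 1, 2 and 3. Of the signalling genes, Bcar1 (p130CAS, a scaffold phosphorylated on stretching) was the highest, with 5950, 5977 and 6114 counts and 54.7 ± 3.10 CPM per kb. Src, the tyrosine kinase, had 3414, 2647 and 3151 counts and 28.9 ± 2.32 CPM per kb. Ptk2, the gene of FAK, had 2727, 2433 and 2699 counts and 9.16 ± 0.125 CPM per kb. It was the most even of the 39 genes tested, at 1.03-fold between clones. Pxn (paxillin, the scaffold that FAK and vinculin bind) had 1685, 1276 and 1456 counts and 7.41 ± 0.757 CPM per kb.

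**Figure D4:**
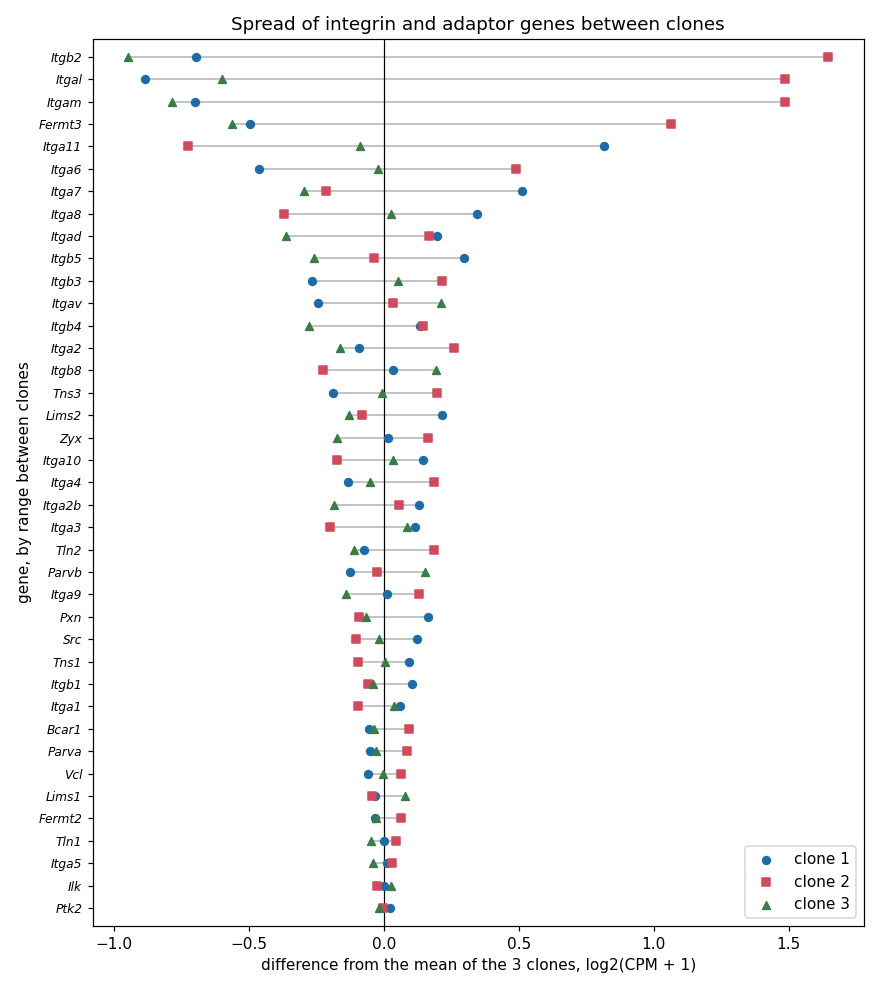
Each row (y axis) is 1 of the 39 genes tested, and points give each clone's difference from the mean of the 3 clones in log2(CPM + 1) (x axis). Itgb2, Itgal, Itgam and Fermt3 at the top are higher in clone 2, Itga11 is highest in clone 1, and adaptors fill most of the even rows at the bottom.

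The spread between clones was tested for the 39 genes that had 10 counts or more in all clones, with a chi-square test that sets the counts of a gene against library size after scaling, and a Benjamini-Hochberg adjusted p-value under 0.05 over 12218 genes. The test passed for 31 of the 39 genes, beside 62.5% of all genes tested. It compares libraries with counting noise, and at high counts it passes small differences, such as the 1.05-fold of Itga5. The 8 that did not pass were Itga1, Itga2, Itga10, Itga2b, Itgb4, Itgb8, Ilk and Ptk2. Without clone 2 the test passed for 20 genes (45.3% of all genes), and Itgb2, Itgal, Itgam and Fermt3 were among the 11 no longer passing.

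A gene is called 2-fold here where log2(CPM + 1) ranged over at least 1 between clones, which asks for more than 2-fold in CPM from genes near 1 CPM. This was so for 5 of the 39 genes (Itgb2, Itgal, Itgam, Fermt3 and Itga11), beside 4.49% of all genes tested. Of the 39 genes, 4 were 2-fold and highest in clone 2, beside 3.28% of all genes tested. Itga11 alone was 2-fold and highest in clone 1, beside 1.01% of all genes, and 0 were highest in clone 3, beside 0.196%. Over all genes tested 549 were 2-fold, of which 401 were highest in clone 2, 124 in clone 1 and 24 in clone 3. Most 2-fold genes were thus highest in clone 2, both in the set and over all genes. Without clone 2, 0 genes of the set passed this rule, and 0.282% of all genes did. Itgad, at 1.29, 1.24 and 0.554 CPM, differed 2.32-fold in CPM between clones 1 and 3 but stayed under the rule at this low level. The median range was 0.32, beside 0.28 over all genes tested, and it was 0.44 for integrin subunits and 0.19 for adaptors. For the 34 genes other than the leukocyte integrins and Fermt3, the median range was 0.30.

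Of the leukocyte integrin subunits, Itgb2, Itgal and Itgam were high in clone 2. Itgb2 is the shared beta subunit of Itgal (LFA-1), Itgam (Mac-1), Itgax and Itgad, and Fermt3 is the kindlin of blood cells. Itgb2 had 227, 1139 and 190 counts (9.14, 50.5 and 7.52 CPM), Itgam had 321, 1403 and 306 (12.9, 62.2 and 12.1 CPM), and Itgal had 163, 861 and 208 (6.56, 38.2 and 8.24 CPM). Fermt3 had 96, 301 and 92 counts (3.86, 13.3 and 3.64 CPM). In each of these genes clone 2 was high, and clones 1 and 3 were close to each other. Clone 2 was 6.06-fold, 4.97-fold, 5.16-fold and 3.56-fold the mean CPM of the other clones for Itgb2, Itgam, Itgal and Fermt3. Between clones 1 and 3 the difference in log2(CPM + 1) was 0.25, 0.08, 0.29 and 0.07 for the same genes.

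The remaining leukocyte subunits were low, and none reached 1 CPM in each clone. Itgax, an integrin of dendritic cells and some macrophages, had 8, 28 and 7 counts and was not tested. Itgad had 32, 28 and 14, and it did not share the high value in clone 2, but it shares sequence with Itgax and is uncertain. Itgae, of epithelial lymphocytes, had 2, 2 and 1. Itgb7, with 9, 11 and 16, was highest in clone 3. The ratio of Itgb2 to its 4 alpha partners per kb was 0.763, 0.884 and 0.641, so subunit and partners were both high in clone 2. Itgam overlaps a further annotated gene over 68.7% of its exon length on the same strand. That gene is not among the genes listed with counts, and whether it affected the count of Itgam is not known.

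**Figure D5:**
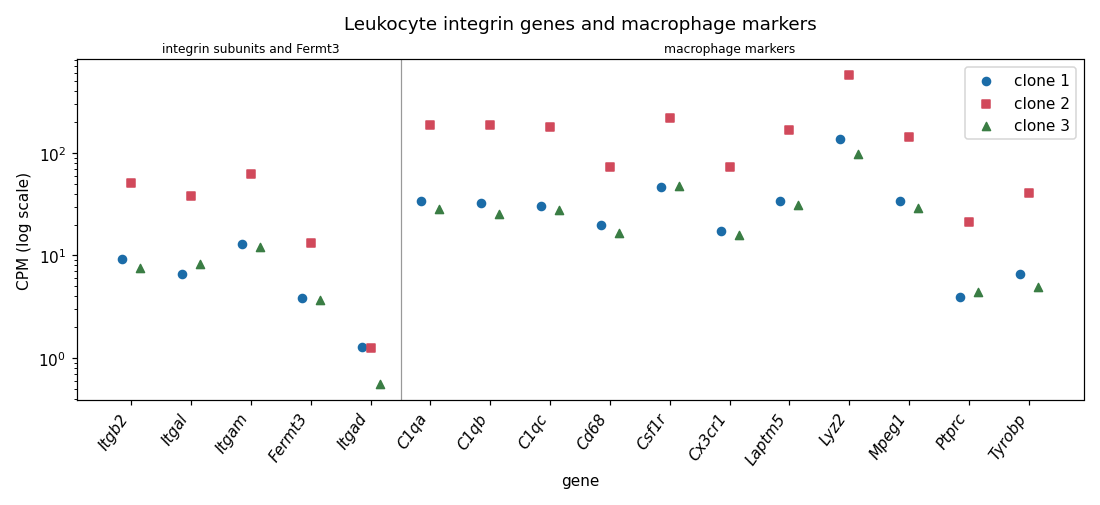
The y axis is CPM on a log scale and the x axis lists 4 leukocyte integrin subunits with Fermt3 and, right of the line, 11 macrophage markers, with 1 point per clone. Clone 2 is above the other clones in each gene but Itgad.

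Macrophage markers moved with these genes. All 11 expressed markers (Ptprc, Csf1r, Cd68, Lyz2, Laptm5, Tyrobp, C1qa, C1qb, C1qc, Mpeg1 and Cx3cr1) were highest in clone 2 and differed 2-fold or more, beside 3.28% of all genes tested. For these markers clone 2 was at 4.04-fold to 7.02-fold the mean of the other clones, with a median of 5.15-fold. Aif1 had 6, 42 and 3 counts. None of 10 markers of lymphocytes, granulocytes and mast cells, such as Cd3e and Mpo, had more than 3 counts in any clone. As a percentage of the summed counts of the 12 macrophage markers, Itgam was 3.25, 3.32 and 3.67 in clones 1, 2 and 3, and Itgb2 was 2.30, 2.70 and 2.28. Itgal was 1.65, 2.04 and 2.50, and Fermt3 was 0.971, 0.713 and 1.10. A gene high in clone 2 gives a steadier ratio than CPM by construction, as the marker sum was also high there. Itgad was 0.324, 0.0663 and 0.168, and Itga4 was 3.42, 0.919 and 4.38, with the lowest ratio of both in clone 2. The part of such cells in the high values of clone 2 was not tested.

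The promoter of Itgam in RefSeq (GRCm38.p6, chr7:128062390-128062689, plus strand) is shown because Itgam was high in clone 2 and its promoter holds matches to GAGGAA, a core of the sites that the myeloid factor PU.1 binds. The matches on either strand are in capitals and start at positions -84, -15 and 33 relative to the start of the gene.
Itgam promoter: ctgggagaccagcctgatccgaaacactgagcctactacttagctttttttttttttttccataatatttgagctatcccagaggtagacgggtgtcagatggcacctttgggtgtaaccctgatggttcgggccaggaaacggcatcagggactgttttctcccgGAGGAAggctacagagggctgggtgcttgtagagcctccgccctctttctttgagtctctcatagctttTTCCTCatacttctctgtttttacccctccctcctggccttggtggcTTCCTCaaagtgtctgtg
GAGGAA on either strand was found in 28.3% of all promoters in the table. It was in 12 of the 37 promoters given for the integrin and adaptor genes, those of Itgb1, Itga5 and Itga11 among them, and in none of those of Fermt3 and Itgax, so it is not particular to Itgam. Promoters of Itgb2 and Itgal were not used here.

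Other genes of integrin adhesions, listed by name, were expressed in 47 of 51 cases, beside 11367 of all 21782 genes. Among the highest were actin linkers, with the filamin Flna at 636 ± 31.0 CPM per kb and the actinin Actn1 at 438 ± 22.2 CPM per kb. The lowest were Tns4 with 7, 8 and 5 counts, Kank4 with 9, 10 and 10, and Cass4 with 41, 40 and 22. Of 49 tested, 42 passed the chi-square test, beside 62.5% of all genes, and 2 were called 2-fold on log2(CPM + 1), beside 4.49% of all genes. Lpxn, the paxillin relative of blood cells, had 21, 71 and 31 counts and was highest in clone 2, as Itgb2, Itgal and Itgam were. Sorbs2, an adaptor that binds vinculin, had 376, 227 and 548 counts and was highest in clone 3. The median range of these genes was 0.21 in log2(CPM + 1), close to the 0.19 of the adaptors.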

How the data were processed

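RNA-seq of 3 WT MEF clones (1 library each, 1 group) was analysed. According to the methods of the paper, the authors aligned single-end reads of 86 nt with TopHat2 2.0.0 (with SAMtools 0.1.16 and Bowtie 0.12.7) and counted them per gene with HTSeq. What the authors deposited is a table of raw counts with no normalization. The submitters' processing notes name mm9, whereas the methods name mm10, and neither the gene annotation nor the strand setting used with HTSeq is given in the sources used here, so overlapping genes may share or lose reads. Counts were scaled to CPM with TMM (edgeR 4.0.16, R 4.3.3). Exon lengths and positions came from GENCODE M21 (GRCm38), where 21117 of the 21782 symbols matched directly, 597 by synonym and 68 not. For 300-base promoters, RefSeq was used.

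Levels are mean ± SD over the 3 clones. The chi-square test had 2 degrees of freedom and used genes that had 10 counts or more in all clones. On counts simulated with counting noise only, it recovered 95% of 200 genes changed 2-fold in 1 clone, with 5 false calls among 12406 genes. The simulation does not show how often the test passes where libraries differ by more than counting noise. Alternatives were DESeq2 1.42.0 size factors, total counts, other thresholds, pseudocounts and lengths, thinned counts, and leaving out each clone. Nothing states that the clones came from separate embryos, so the spread between these samples may be technical. The p-values set this spread against counting noise and do not measure its size. The 44 genes and the other lists, all given by name, were chosen with earlier results of these data known. All 44 genes are named, as are, from the other adhesion genes, the 3 highest and 3 lowest per kb and all that differed 2-fold, except that 1 gene under this rule and some marker genes are not reported here. Tns2 and Adgre1, on these lists, were not analysed here. Python 3.11.15 with pandas 2.3.3 and scipy 1.17.1 was used.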

Additional observations from a re-analysis of the deposited data

How the results depend on the processing

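Of 93 values recomputed under the alternatives, 75 stayed within 1 SD of the value reported or, for counts, within 1.5 times, and 18 moved. Thresholds from more than 3 counts to 5 CPM gave 32 to 41 expressed genes and 14 to 22 pairs with both subunits expressed. Leaving out 1 clone gave 20 to 27 genes passing the chi-square test, 0 to 5 genes differing 2-fold, and a median range of 0.14 to 0.26. The lowest of each, 20 genes, 0 genes and 0.14, was found without clone 2, and a range over fewer clones is smaller by construction. Over all genes tested, 31.7%, 45.3% and 53% passed the chi-square test without clone 1, 2 or 3. The shares of all genes at 2-fold were 2.38%, 0.282% and 4.11% in the same order. With clone 1 left out, Itga11 no longer differed 2-fold and the median range was 0.19. A pseudocount of 0.1 CPM gave 6 genes at 2-fold. With the transcript of the longest coding sequence, the longest coding sequence alone and no length, the share of Tln1 was 93.0%, 93.1% and 93.1%, that of Parva 90.9%, 92.0% and 92.2%, that of Lims1 85.1%, 80.4% and 82.7%, and that of Itga5 among alpha subunits 71.4%, 67.0% and 66.2%. The share of Tns1 was 70.2% with no length. No direction between paralogs changed. DESeq2 size factors called the same 31 genes, and total counts called these and Ilk. No paired analysis was possible because the samples form 1 group. Itgax, Itgae, Itgb6, Itgb7 and Fermt1, with under 10 counts in a clone, were too sparse to test.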
